A study of Mus musculus with 24 samples.

Results

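miR-138 is a small regulatory RNA made from 2 loci of the mouse genome, Mir138-1 on chromosome 9 and Mir138-2 on chromosome 8. Both loci, and the protein-coding gene Nup93 beside Mir138-2, were followed in an array series on the prefrontal cortex. The 3 genes were chosen by symbol from a platform annotation that gave 18820 measured genes, 303 of them miRNA precursor genes. In that annotation each of the 3 had a single probe set with no other gene symbol on it. Their difference between genotypes was known when they were chosen, so that difference is described below and not tested.

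The series compared mice labelled MUT, heterozygous for the engineered chromosome 16 deletion Df16(A)+/-, with mice labelled WT. There were 12 MUT and 12 WT mice, all males aged 8 weeks on a C57BL6/J background, and the wild types were littermates of the mutants. The deletion corresponds to the human 22q11.2 microdeletion and removes a single copy of several genes, Dgcr8 among them, in every cell of the animal. Neither Mir138-1 nor Mir138-2 lies on the deleted chromosome. Whole tissue was profiled, so fewer cells of a type and less RNA per cell cannot be told apart. The labels name each array a replicate and do not state litter, so p-values measure the spread between these arrays.

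A miRNA gene is transcribed as a long primary transcript that folds into a hairpin. In the nucleus Drosha and its RNA-binding partner, the protein made by Dgcr8, cut the hairpin out, and Dicer then cuts it to the mature miRNA, which guides Argonaute proteins to messenger RNAs through its seed. In rat hippocampal neurons miR-138 is known to limit the size of dendritic spines, in part through the depalmitoylating enzyme encoded by Lypla1. Nup93 encodes a scaffold protein of the inner ring of the nuclear pore complex, the channel through the nuclear envelope. On this kind of array a precursor's probe set reads any RNA that holds the hairpin sequence, primary transcript and hairpin alike, and not the mature miRNA.

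The hairpin sequences of both loci are shown because they are what the precursor rows stand for; capitals mark the 2 mature arms. They are RefSeq sequences of build GRCm38.p6, and both loci matched an entry. Mir138-1 is at chr9:122682876-122682974 and Mir138-2 at chr8:94324311-94324381, each on the plus strand. The build behind the array's probe sets is not given in the sources used here.
Mir138-1 hairpin: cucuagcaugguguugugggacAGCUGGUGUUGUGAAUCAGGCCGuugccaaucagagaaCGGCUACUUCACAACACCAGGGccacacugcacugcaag
Mir138-2 hairpin: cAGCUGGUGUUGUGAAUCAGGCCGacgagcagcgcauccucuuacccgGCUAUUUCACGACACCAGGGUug

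The mature arms are shown with the seed, bases 2 to 8, in capitals, because the seed is what decides whether the loci can act on the same messenger RNAs. The 5p arm is the same 23 bases at each locus. The 3p arms carry different seeds.
mmu-miR-138-5p: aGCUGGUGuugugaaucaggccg
mmu-miR-138-1-3p: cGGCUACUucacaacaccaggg
mmu-miR-138-2-3p: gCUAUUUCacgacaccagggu

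Of 1738 mature entries in the RefSeq table, 2 had the 5p seed, the entries of these 2 loci. Aligned end to end, the 3p arms shared 18 positions, with 2 mismatches and 3 gap positions. The annotated hairpins were 99 and 71 bases long for Mir138-1 and Mir138-2, and shared 54 positions. Whether the probe set of either locus also reads RNA of the other was not tested. Between the arms the loop was 15 bases long in Mir138-1 and 24 in Mir138-2, with 7 positions in common. Folded with RNAfold, the hairpins had minimum free energies of -45.5 kcal/mol for Mir138-1 and -29.3 kcal/mol for Mir138-2, and at each locus 18 of the 23 bases of the 5p arm and 6 of its seed bases were paired. The folds held 33 base pairs for Mir138-1 and 23 for Mir138-2. Because the annotated entries differ in length, these energies do not rank the loci by stability. The letters UGU, known from human precursors as a loop motif that favours processing with DGCR8, stood in the loop of neither locus (plus strand of the RNA only), against 31.5% of 644 hairpins with 2 annotated arms.

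The arrays were alike, with pairwise correlations between 0.994 and 0.997 over 18820 genes. On the first principal component, which held 14.7% of the variance, mutants of replicates 9, 5 and 10 lay farthest out, and fold changes of the members and correlations between them are also given without them. Dgcr8 averaged 8.26 ± 0.08 in mutants and 8.79 ± 0.05 in wild types (log2 RMA values, SD, n = 12 each), and all 12 mutants lay below all wild types, as they did for Ranbp1, Hira, Slc25a1 and Zdhhc8, genes of the deleted segment. Cortical identity was checked with markers. The neuronal genes Snap25 and Syt1 averaged 13.56 and 13.26 in mutants, and 13.56 and 13.27 in wild types, and the cortical layer gene Tbr1 10.77 in mutants and 10.83 in wild types. No measured marker of neurons, cortical layers, astrocytes, oligodendrocytes, microglia, endothelium, striatum or blood passed the test between genotypes (limma). Unadjusted p was under 0.05 for Tbr1 (log2 fold change -0.06, p = 0.038, limma) and Drd2 of the striatum (0.116, p = 0.0376, limma). It was also under 0.05 for the granulocyte markers given below. Of 4 measured layer markers, 2 lay above 0 and 2 below.

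Mir138-1 was higher in every mutant than in any wild type. Its log2 value was 7.15 in the lowest mutant, 7.33 at the median and 7.59 in the highest, against 6.23, 6.66 and 7.03 in wild types. A gap of 0.12 separated the lowest mutant, replicate 9, from the highest wild type, replicate 5. Mean levels were 7.36 ± 0.15 in mutants and 6.65 ± 0.19 in wild types (SD, n = 12 each), which is a difference of 0.70 ± 0.07 (SE), or 1.63-fold.

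Mir138-2 was likewise higher in every mutant than in any wild type. The lowest, median and highest values were 9.40, 9.60 and 9.73 in mutants, against 8.36, 8.84 and 9.20 in wild types. The gap between the lowest mutant, replicate 5, and the highest wild type, replicate 10, was 0.19. It averaged 9.59 ± 0.11 in mutants and 8.82 ± 0.20 in wild types (SD, n = 12 each). The log2 fold change was 0.77 ± 0.06 (SE), a fold of 1.70. It differed from that of Mir138-1 by about the standard error, and whether the loci differ was not tested.

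Nup93 was also higher in mutants, with a smaller difference and some overlap. In mutants the lowest, median and highest log2 values were 9.80, 9.94 and 10.09, against 9.31, 9.68 and 9.85 in wild types. The mutant of replicate 5, at 9.80, lay below the wild types of replicates 10 and 11, and the other 11 mutants lay above every wild type. Means were 9.94 ± 0.08 in mutants and 9.66 ± 0.15 in wild types (SD, n = 12 each), which is a difference of 0.29 ± 0.05 (SE), or 1.22-fold. The log2 fold change of Mir138-2 exceeded that of Nup93 by 0.48.

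**Figure D1:**
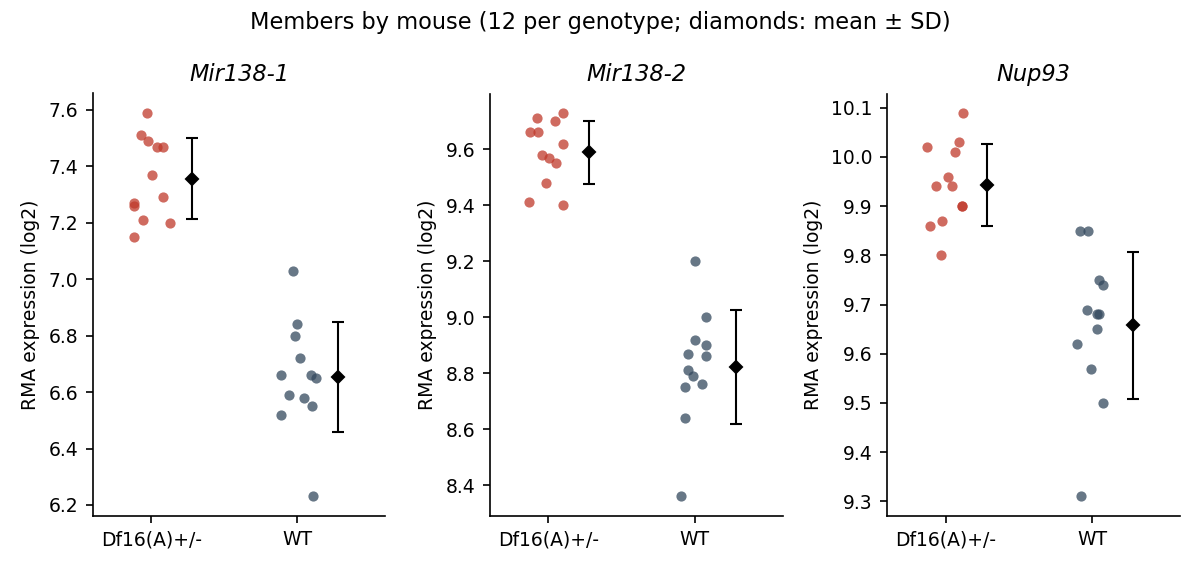
RMA expression on the log2 scale (y axis, cut to the range of each gene) of Mir138-1, Mir138-2 and Nup93, 1 point per mouse, mutants left of wild types; diamonds and bars are the mean and SD of 12 mice. The genotypes do not overlap for Mir138-1 and Mir138-2, and for Nup93 11 of 12 mutants lie above every wild type.

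Over all genes, 0.531% were called higher in mutants (100 of 18820; limma, Benjamini-Hochberg adjusted p under 0.05) and 0.228% lower. All 3 members are among those called higher. In 0.112% of genes every mutant lay above every wild type, and Mir138-1 and Mir138-2 are among these 21 genes. By the size of the log2 fold change, Mir138-2 ranked 3rd and Mir138-1 7th of all genes, and Nup93 100th. Within the 303 precursor genes they ranked 3rd and 6th: Mir137 (1.15) and Mir101a (0.84) stood above Mir138-2, and Mir412 (0.75) and Mir29a (0.72) between the loci. The 301 other precursors had a median log2 fold change of 0.109, and 57 of them were called higher and none lower; over all genes the median was -0.001. These ranks and counts rest on the values by which the members were chosen.

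**Figure D2:**
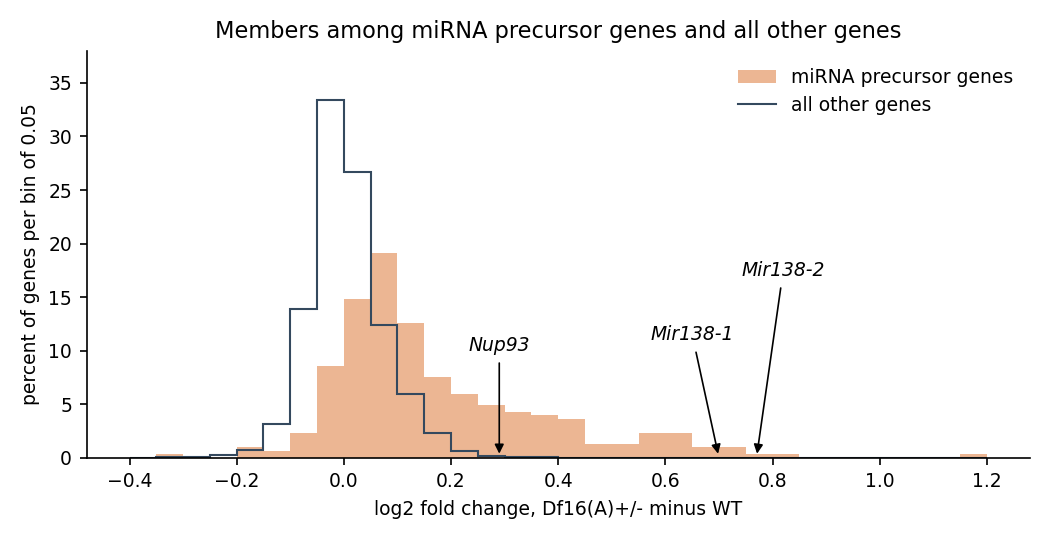
Distribution of log2 fold changes, Df16(A)+/- minus WT (x axis), as the percent of genes in each bin of 0.05 (y axis), for 303 miRNA precursor genes (filled) and all other genes (line); arrows mark the members. The range shown leaves out 27 genes, and Mir138-1 and Mir138-2 lie at 0.70 and 0.77, in the upper tail of the precursor genes.

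The labels carry a running array number, and the difference was measured on each side of its middle. Arrays 1 to 12 held 7 mutants and 5 wild types, and arrays 13 to 24 held 5 mutants and 7 wild types. For Mir138-1 the log2 fold changes were 0.71 ± 0.11 and 0.68 ± 0.07 (SE) in arrays 1 to 12 and 13 to 24. For Mir138-2 they were 0.89 ± 0.09 and 0.66 ± 0.09, and for Nup93 0.36 ± 0.07 and 0.23 ± 0.06. All members were higher in mutants in each set of arrays. For Mir138-1 and Mir138-2 any split must give this direction, because every mutant lay above every wild type. The split describes the size of the difference and does not test it. Without the mutants of replicates 5, 9 and 10 the log2 fold changes were 0.75 for Mir138-1, 0.80 for Mir138-2 and 0.30 for Nup93. The wild type of replicate 3 was the lowest wild type for all 3 members, and without it they were 0.66, 0.72 and 0.25. The granulocyte markers Ngp, S100a8 and S100a9 were lower in mutants without passing the test (log2 fold change -1.195 ± 0.43, -0.666 ± 0.32 and -0.458 ± 0.21, SE). Their unadjusted p-values were 0.0101, 0.0463 and 0.0371 (limma). The blood marker Alas2 had -0.054 ± 0.15 (unadjusted p = 0.721, limma). The mean log2 level of these 4 measured markers of 6 listed ranged from 5.69 to 6.68 in mutants and from 6.08 to 8.94 in wild types. Their part in the members' difference was not tested.

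Beside the loci, the neighbouring genes were compared in the same fit. Of 19 measured genes, up to 5 on each side of each locus and leaving Nup93 aside, none was called higher or lower (limma). Over all genes 0.76% were called in either direction. None of the 19 had an unadjusted p under 0.05, against 2245 of all 18820 genes. Their median log2 fold change was -0.002, with a range from -0.11 to 0.13. Next to Mir138-1, Abhd5, an activator of fat breakdown, had a log2 fold change of -0.09 ± 0.05 (SE) and Tcaim, a mitochondrial protein gene, -0.03 ± 0.03 (adjusted p = 0.515 and 0.753, limma). Farther out from Mir138-1, Ano10, Snrk, Pomgnt2 and Gask1a on one side and Zfp445, Zkscan7, Zfp105 and 1110059G10Rik on the other lay between -0.11 and 0.07. The plot of neighbouring genes shows these values beside the 0.70 of Mir138-1.

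In the RefSeq gene table the span of Nup93, which covers curated and predicted transcripts, contains Mir138-2, and both lie on the plus strand. The table gives spans alone, so exon and intron were not assigned here. On the far side of Nup93 the metallothionein genes Mt1, Mt2, Mt3 and Mt4, which encode metal-binding proteins, had log2 fold changes between 0.01 and 0.10. On the other side of Mir138-2, Slc12a3, the thiazide-sensitive sodium-chloride cotransporter, had 0.06 ± 0.06 and Herpud1, a gene of protein degradation at the endoplasmic reticulum, -0.03 ± 0.04 (SE; adjusted p = 0.759 and 0.786, limma). The noncoding 9330175E14Rik had 0.13 ± 0.08 and Cpne2, a calcium-dependent lipid-binding protein, 0.02 ± 0.03 (adjusted p = 0.513 and 0.761, limma). Nlrc5, an activator of MHC class I genes, averaged 7.89 in mutants and 7.89 in wild types.

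**Figure D3:**
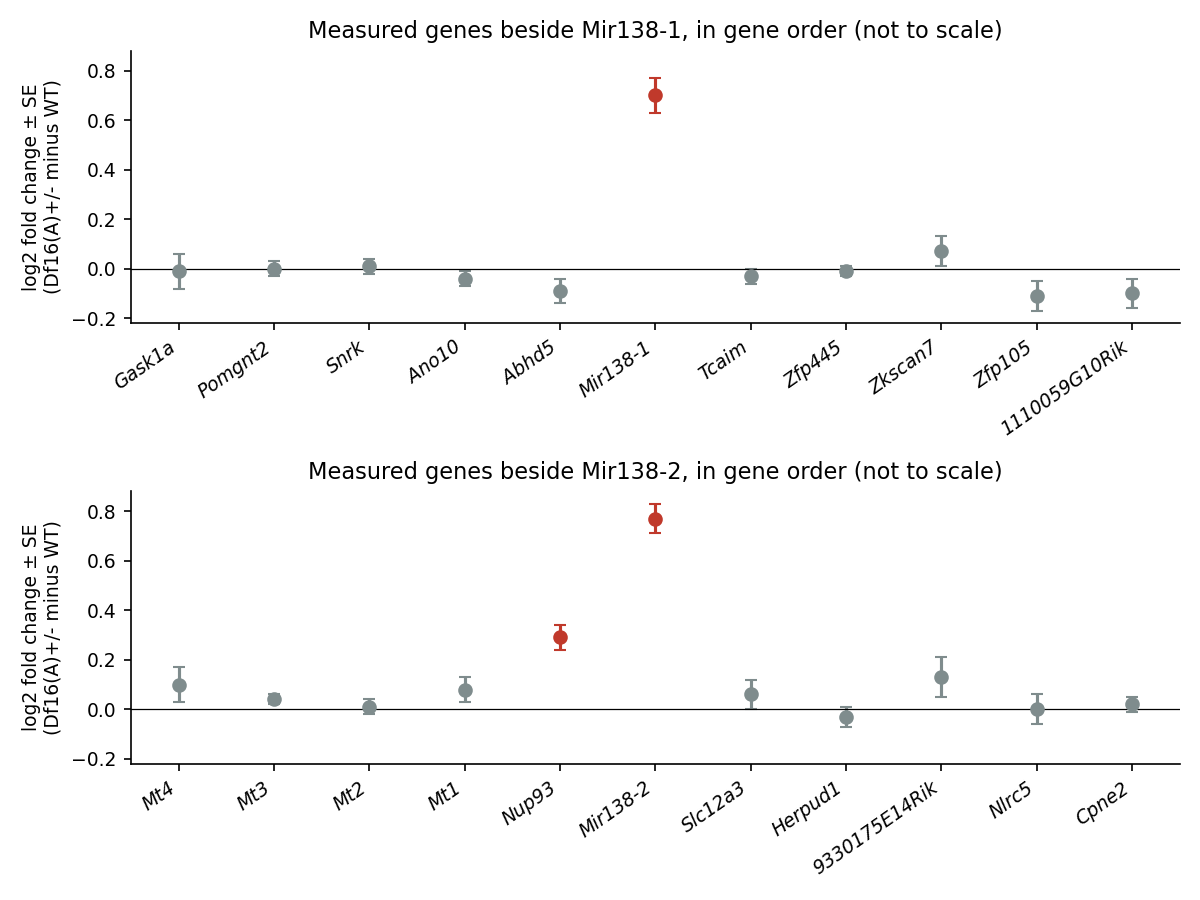
Log2 fold change, Df16(A)+/- minus WT, with its standard error (y axis) for the measured genes on each side of Mir138-1 (top) and Mir138-2 (bottom), in gene order along the chromosome and not to scale (x axis); members are red. Both loci lie at or above 0.70, Nup93 at 0.29 and the 19 other genes between -0.11 and 0.13.

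How often a coding gene that spans a called precursor was itself called was counted for comparison. There were 12 measured coding genes with a called precursor inside their span on the same strand. Apart from Nup93, 3 of the 11 others were called higher and none lower: Spaca6, whose span holds Mir125a and Mirlet7e (0.33), Aopep, with Mir23b, Mir24-1 and Mir27b (0.25), and Slit3, with Mir218-2 (0.14). In these pairs the precursor had the larger log2 fold change, except that Mir125a had 0.27, against 0.33 for Spaca6. The 12 genes were picked by precursor calls in these same data, so the count is a description and not a test. Of all 68 measured coding genes that span a precursor, 5 were called higher and 1 lower. Among them 2610318N02Rik was called higher (0.33), though its precursors Mir130b and Mir301b were not (0.08 and 0.07). The gene called lower was Tango2 (-0.77), whose span holds Mir185 (-0.16, not called). Its log2 fold change lay within the range of the checked genes of the deleted segment, -0.88 to -0.54. The share called higher over all genes is the 0.531% given above.

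Other genes of the nuclear pore gave the setting for Nup93. Of 24 measured nucleoporin genes of 30 listed, none was called higher or lower (limma), against 0.76% of all genes called in either direction. An unadjusted p under 0.05 was found for 4 of them, and for 2245 of all 18820 genes. The median log2 fold change was -0.031, against -0.001 over all genes. Below 0 lay 19 of the 24, and 9600 of all 18820 genes. The range was -0.08 to 0.06, below the 0.29 of Nup93 throughout. Smallest in p were Nup133, a subunit of the outer Y-shaped complex (-0.08 ± 0.03, SE), Aaas, which encodes the pore protein aladin (-0.06 ± 0.03), Ranbp2 of the cytoplasmic filaments (-0.07 ± 0.03) and Nup88 of the cytoplasmic face (-0.06 ± 0.03); their adjusted p-values were 0.285, 0.369, 0.379 and 0.387 (limma). The inner-ring partners of Nup93, named outside the rule for named genes, were Nup205 with -0.05 ± 0.03, Nup155 with -0.03 ± 0.03 and Nup188, which averaged 8.21 in mutants and 8.21 in wild types.

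Genes described as targets of miR-138 were listed from general knowledge, without a target database. Of 14 measured of 16 listed, none was called higher or lower (limma), against 0.76% of all genes called in either direction. An unadjusted p under 0.05 was found for 3 of them, and for 2245 of all 18820 genes. The median log2 fold change was -0.023, against -0.001 over all genes. Below 0 lay 10 of the 14, and 9600 of all 18820 genes. Dek, a chromatin protein whose place on the list is not certain, averaged 9.04 ± 0.06 in mutants and 9.14 ± 0.04 in wild types (SD, n = 12 each; log2 fold change -0.10 ± 0.02, adjusted p = 0.0558, limma), and it was called lower with array weights, with dim genes filtered out and with the array number as a block. Ezh2, the methyltransferase of the Polycomb complex, had -0.08 ± 0.03, Sox4, a transcription factor of immature neurons, 0.14 ± 0.07, and Limk1, a kinase that acts on the actin regulator cofilin, -0.04 ± 0.03 (SE; adjusted p = 0.304, 0.403 and 0.669, limma). Lypla1, singled out for its role in spines and outside the rule, averaged 8.76 ± 0.09 in mutants and 8.79 ± 0.08 in wild types (SD, n = 12 each; adjusted p = 0.797, limma). An effect of a miRNA on the translation of a messenger RNA is not visible to an array.

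**Figure D4:**
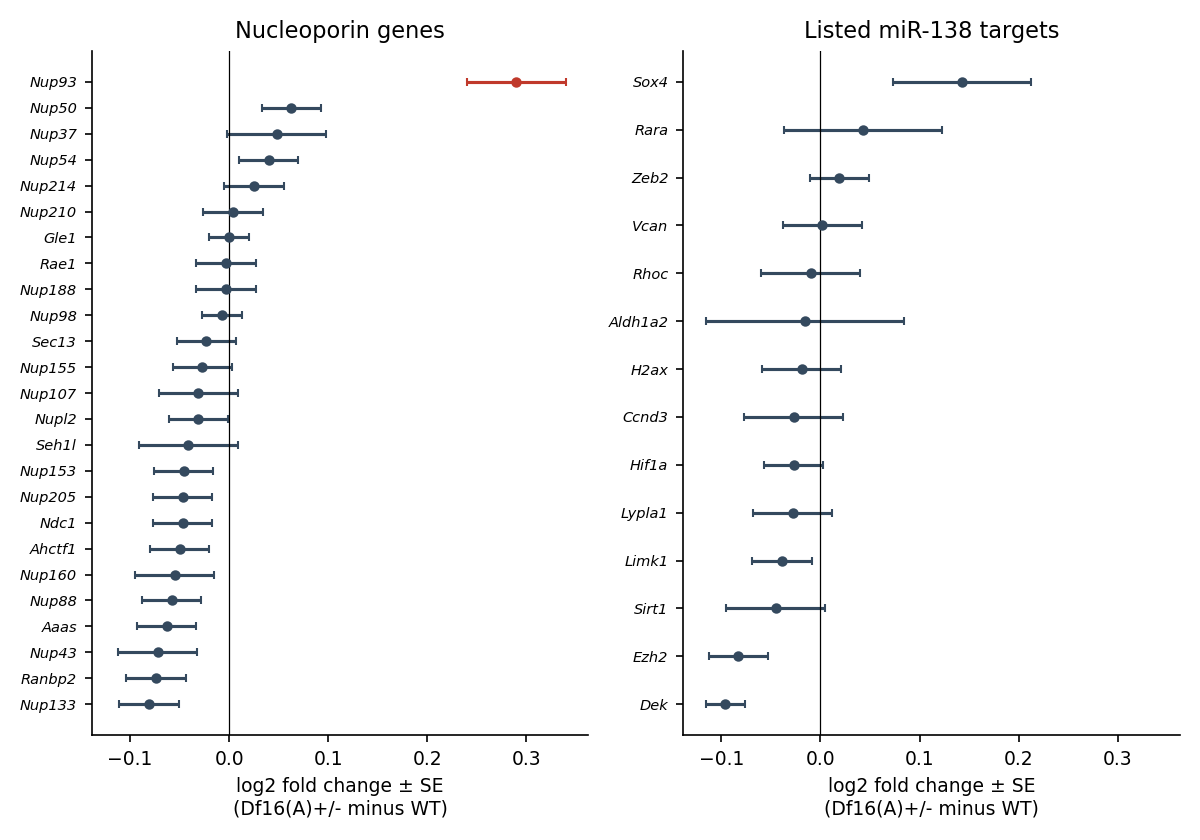
Log2 fold change, Df16(A)+/- minus WT, with its standard error (x axis) for Nup93 (red) and 24 other nucleoporin genes (left) and for 14 listed targets of miR-138 (right), sorted by value. Nup93 lies at 0.29 and the other nucleoporins between -0.08 and 0.06; the listed targets lie between -0.10 and 0.14.

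Variation between mice of the same genotype was not used to choose the members, and there 18 relations were tested, 9 in each genotype. Mir138-2 and Nup93 varied together in wild types. Over 12 wild types Pearson's r was 0.90 (permutation test, two-sided, p = 0.00014, adjusted p = 0.00252) and Spearman's rho 0.83 (permutation p = 0.00153, adjusted p = 0.00966). Leaving out replicates 3 and 10, the farthest from the median of Mir138-2, r was 0.72 (permutation p = 0.021, adjusted p = 0.0947), which did not pass; without replicate 3 alone it was 0.78 (permutation, adjusted p = 0.0367). Over 12 mutants r was 0.53 and rho 0.38 (permutation p = 0.0782 and 0.228; adjusted p = 0.235 and 0.536), without replicates 5 and 8 r was 0.22, and without replicates 5, 9 and 10 it was 0.34. The difference between the genotypes in this correlation was not tested. Some other genes came as close in wild types. Among the 5 genes most like each member, r there was 0.94 for Mir138-2 with Nav2 and 0.95 for Nup93 with Kcnj6.

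No relation between the loci of miR-138 on different chromosomes passed the test. Mir138-1 with Mir138-2 gave r = 0.43 and rho = 0.37 in mutants (permutation p = 0.167 and 0.238, adjusted p = 0.30 and 0.536) and r = 0.50 and rho = 0.38 in wild types (permutation p = 0.0916 and 0.226, adjusted p = 0.236 and 0.536). In mutants r was 0.42 without replicates 6 and 9 and 0.24 without replicates 5, 9 and 10, and in wild types without replicates 3 and 5 it was 0.24. Without the wild type of replicate 3 alone, r in wild types was 0.03. Mir138-1 with Nup93 gave r = 0.29 and rho = 0.15 in mutants (permutation, adjusted p = 0.486 and 0.705) and r = 0.46 and rho = 0.27 in wild types (adjusted p = 0.263 and 0.558), without replicates 5, 9 and 10 r in mutants was 0.28, and without replicate 3 it was -0.07 in wild types. In the plot of deviations that mouse lies at the lower left of each panel.

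**Figure D5:**
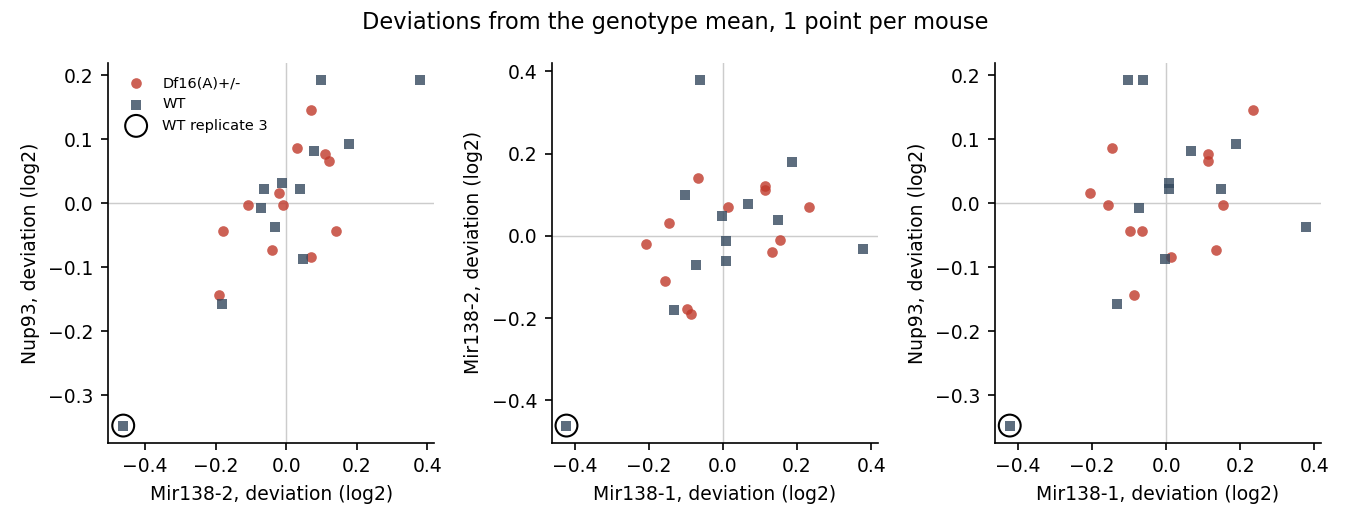
Deviation of each mouse from the mean of its genotype on the log2 scale, for Nup93 against Mir138-2, Mir138-2 against Mir138-1, and Nup93 against Mir138-1 (mutants as circles, wild types as squares, 12 each). The wild type of replicate 3, ringed, is the lowest for every member; r between Mir138-2 and Nup93 was 0.53 in mutants and 0.90 in wild types.

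Each member was also set against Dgcr8 and against the mean of the 301 other precursor genes in the same mouse. With Dgcr8, r lay between -0.34 and 0.55 in mutants and between -0.14 and 0.19 in wild types, rho lay between -0.26 and 0.55 in mutants and between 0.22 and 0.29 in wild types, and none passed the test (permutation, lowest adjusted p = 0.227 for r and 0.253 for rho). In wild types these values depended on single mice and on centring. Without replicate 10, r was 0.46 for Mir138-2 and 0.39 for Nup93, against -0.14 and -0.02 with all 12. Without replicates 3 and 10 it was 0.76 for Mir138-2 (permutation, adjusted p = 0.0619). With each array centred on its median the wild-type values were 0.52 for Mir138-1, 0.25 for Mir138-2 and 0.33 for Nup93, and none of these passed.

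The mean of the other precursors was followed in the same way. With the other precursors, Mir138-1 gave r = 0.38 and rho = 0.26 in mutants (permutation p = 0.222 and 0.419, adjusted p = 0.363 and 0.558) and r = 0.83 and rho = 0.90 in wild types (permutation p = 0.00037 and 0.00015, adjusted p = 0.00333 and 0.0027). In wild types without replicates 3 and 5 r was 0.92. Mir138-2 gave r = 0.79 and rho = 0.83 in mutants (permutation p = 0.00288 and 0.00161, adjusted p = 0.0173 and 0.00966), 0.82 without replicates 5 and 8, and r = 0.58 and rho = 0.57 in wild types (permutation p = 0.0452 and 0.0551, adjusted p = 0.203 and 0.248). For Mir138-2 in wild types r was 0.57 without replicates 3 and 10 and 0.36 without replicate 3 alone. It passed with the array number taken out (partial r = 0.79, permutation, adjusted p = 0.0145) and without replicate 10 alone (r = 0.69, permutation, adjusted p = 0.0487). The call for Mir138-2 in mutants was lost when each array was centred on its median (r = 0.62, permutation, adjusted p = 0.109), without the mutants of replicates 5, 9 and 10 (r = 0.74, adjusted p = 0.103), and without the mutant of replicate 2 (r = 0.74, adjusted p = 0.0596) or of replicate 11 (r = 0.76, adjusted p = 0.0507). Nup93 with the other precursors gave r = 0.16 and rho = 0.08 in mutants (permutation, adjusted p = 0.729 and 0.799) and r = 0.48 and rho = 0.31 in wild types (adjusted p = 0.255 and 0.558), and with the array number taken out it passed in wild types (partial r = 0.74, adjusted p = 0.0188). In wild types r was 0.19 without replicate 3, and -0.28 without replicates 3 and 12, the farthest from the median of Nup93, so its sign turned with those mice. Without the mutants of replicates 5, 9 and 10, r in mutants was 0.15 for Mir138-1 and -0.01 for Nup93.

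The genes most like each member across mice were ranked by Pearson's r over the 24 deviations from the genotype means, as a description with no test; all values share the array they were read from. For Mir138-1 they were Mir412 (r = 0.74), Mir23b (0.70), Crybg2 (0.70), Olfr1274 (0.68) and Adcy1, an adenylyl cyclase of neurons (0.65), and Mir138-2 came 200th at 0.48. Mir412 and Mir23b were themselves called higher in mutants (log2 fold change 0.75 and 0.57, limma adjusted p = 3.65e-08 and 7.76e-06). Crybg2, Olfr1274 and Adcy1 were not called (limma adjusted p = 0.957, 0.802 and 0.29). For Mir138-2 they were the large membrane protein genes Pkd1 (0.88), Lrp1 (0.87) and Celsr3 (0.86), with Nav2 (0.86) and Ulk4 (0.86), and Nup93 came 27th at 0.81. For Nup93 they were the potassium channel gene Kcnj6 (0.91), Xkr6 (0.87), the precursor Mir539 (0.86), the axonal adhesion gene Nfasc (0.86) and Mical3 (0.85), and Mir138-2 came 19th. None of the 5 genes most like Mir138-2, nor of those most like Nup93, was called between genotypes; their log2 fold changes lay between 0.02 and 0.22. The median r with all genes was -0.05 for Mir138-2 and -0.06 for Nup93.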

How the data were processed

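The deposited table holds 35556 probe sets, each with a log2 value in every mouse. RMA (background correction, normalization and summary over probes) is the tool that the submitters' processing notes list; no source used here states its options or a build. Per the labels' protocols, 100 ng of total RNA from a miRNeasy kit was labelled with a whole-transcript sense kit. RMA compresses differences of dim probe sets, and the number of arrays limits the precision. Probe sets with 1 symbol in the platform annotation (21218) gave 18820 genes, by the probe set with the highest mean where a gene had several; 18790 were matched to RefSeq by Entrez identifier. Genotypes were compared with limma 3.58.1 (R 4.3.3, genotype as sole term, Benjamini-Hochberg over 18820 genes, threshold 0.05), a step tested on simulated data. Correlations within genotype used 100000 permutations (two-sided), adjusted over 18. Hairpins were folded with RNAfold (ViennaRNA 2.7.2). Members and gene lists were chosen with earlier results of these data known. The genes named were the members, Dgcr8, the neighbours, up to 4 genes of the nucleoporin and target lists with the smallest p, and the 5 genes most like each member. Alternatives covered normalization, the variance model, array weights, a filter on dim genes, probe sets, blocks and left-out arrays.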

Additional observations from a re-analysis of the deposited data

How the results depend on the processing

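The log2 fold changes of the members kept their direction and moved by less than 1 SD between mice under every alternative that measured them. The ranges were 0.68 to 0.75 for Mir138-1, 0.66 to 0.89 for Mir138-2 and 0.23 to 0.36 for Nup93. The filter on dim genes removed Mir138-1. For Mir138-1 and Mir138-2, leaving arrays out could not turn the direction, because every mutant lay above every wild type. The kept direction is a description of members chosen by this contrast. Leaving out each array in turn, a check of fold changes and correlations chosen after seeing the data, gave log2 fold changes of 0.66 to 0.74, 0.72 to 0.80 and 0.25 to 0.30. Counts of all genes moved more. With a trend in the variance 66 genes were lower; with dim genes filtered out 48 were higher and 67 lower, with fewer genes tested; arrays 1 to 12 gave 35 higher and 23 lower and arrays 13 to 24 gave 35 and 22, with fewer mice. A single listed target of miR-138, Dek, was lower with array weights and with the filter (1 each). It was also lower with arrays 1 to 12 and 13 to 24 as blocks (1). With single arrays left out the count of listed targets called lower ranged from 0 to 1. It was 1 without mutants 5 or 6 or wild types 7 or 11, and the cause was not tested. The correlation of Mir138-2 with Nup93 in wild types was 0.72 without the 2 farthest mice and no longer passed. Genotypes share replicate numbers 1 to 12. Over 12 pairs the deviations of same-numbered mice correlated between -0.08 and 0.31, and 6 pairs exceeded 0.1. Median r was 0.1 within these pairs and -0.01 for mice that did not share a number. Numbers were not taken as pairs in the main fit, and whether same-numbered mice share variation was not tested. With the replicate block 110 genes were higher and 37 lower, and the members' log2 fold changes remained 0.70, 0.77 and 0.29. The files give no background signal, so no probe set could be called undetected.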
